A study of Drosophila melanogaster with 4 samples.

Results

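The small heat shock protein genes of Drosophila melanogaster described here are Hsp22, Hsp23, Hsp26, Hsp27, Hsp67Bc and l(2)efl. They were taken by name, as genes whose proteins carry the alpha-crystallin domain, after the deposited transcript values had been summed per gene, and make up 6 of the 14001 annotated genes in the tables. The RNA came from whole embryos of strain w118. Embryos had been collected 4–5 h after egg laying, once the embryo transcribes its own genome, or 0–1 h after egg laying, when nearly all mRNA is that stored by the mother. Each stage has 2 libraries, numbered replicate 1 and 2. All embryos were dechorionated with bleach, washed and lysed, and the cleared lysate gave the total RNA. No heat shock, transgene or mutant allele other than the strain is named for either stage. Native RNA was read on Nanopore flow cells by direct RNA sequencing, so a read stands for an RNA strand that was not copied or amplified, and each library is a bulk sample of whole embryos.

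Small heat shock proteins are chaperones that need no ATP. They assemble into oligomers, hold unfolding proteins in a soluble state and pass them on to Hsp70 and its co-chaperones for refolding. In heated flies the heat shock factor switches their genes on together. Without heat they are also switched on in development, and Hsp26 and Hsp27 are known for being transcribed in the nurse cells of the ovary and delivered to the egg. The proteins work in different places in the fly: Hsp22 in mitochondria, Hsp23 and Hsp26 in the cytosol and Hsp27 in the nucleus. Hsp67Bc acts in selective autophagy of misfolded proteins with the co-chaperone starvin, and l(2)efl is the member most like vertebrate alpha-crystallins.

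Depth was 883138 and 429534 reads at 4–5 h, against 573843 and 557424 reads at 0–1 h. Reads of cytosolic ribosomal protein genes made up 50.2% and 49.8% at 4–5 h, against 23.3% and 26.2% at 0–1 h. Transcripts weighted by their reads averaged 1266 and 1337.5 nt at 4–5 h, against 1798 and 1665 nt at 0–1 h. Stage markers were read first. Of 5 maternal markers (bcd, nanos, osk, pgc, dhd) 4 fell and none rose, and the 6 zygotic markers (Kr, en, eve, ftz, twi, sna) had 181 and 101 reads at 4–5 h, against 7 and 11 at 0–1 h. Of these Kr, en, twi and sna rose, and eve and ftz were not tested, with at most 2 reads in any library. Markers of the mother's follicle cells, chorion and yolk (6 genes) had 1 and 2 reads at 4–5 h and 0 in both 0–1 h libraries. Of 4 testis and sperm markers 3 were at 0 reads in all libraries. The fourth, bam, which the female germ line also uses, had 2 and 3 reads at 4–5 h, against 49 and 60 at 0–1 h. Of 4 hemocyte markers Hml and NimC1 were at 0 throughout, and the list summed to 48 and 27 reads at 4–5 h, against 95 and 98 at 0–1 h. The other 2 went opposite ways: crq fell to 20 and 9 reads at 4–5 h, against 92 and 96 at 0–1 h, and srp rose to 28 and 18 reads at 4–5 h, against 3 and 2 at 0–1 h. The part of these other cell types in the results was not tested.

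Of the members, 5 had at least 1 read, and 4 passed the filter on low counts (edgeR's filterByExpr with a minimum count of 10) and were tested. Hsp26 and Hsp27, the most abundant members at 0–1 h, were 34.9-fold and 22.9-fold lower at 4–5 h. Hsp22 fell 2.42-fold, and Hsp23 rose relative to the bulk of genes but not on the deposited TPM scale, where its log2 change was −0.16. Across all 6042 tested genes 31.5% were called lower at 4–5 h and 28.6% higher (1903 and 1729 genes, Benjamini-Hochberg adjusted p under 0.05 in edgeR's quasi-likelihood test). Of the 4 tested members 3 were called lower and 1 higher, which is too few genes to set against those shares. With library size as the only scaling the split over all genes was 654 higher and 3828 lower. In bulk RNA of whole embryos, a transcript kept in only part of the embryo and a lower level throughout cannot be told apart.

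Hsp26, a cytosolic chaperone, lies on the minus strand of chromosome arm 3L at 9376418–9377427 (build BDGP6, gene model of Ensembl). It had 26 and 17 reads at 4–5 h, against 1584 and 1460 at 0–1 h. Scaled to library size with TMM factors, which align the bulk of genes, these are 47.3 and 56.1 CPM (reads per 1e6 scaled reads) at 4–5 h, against 1803 and 1764 CPM at 0–1 h. The replicates lay close together within each stage, and the stages did not overlap. Hsp26 thus averaged 51.7 ± 6.25 CPM at 4–5 h and 1783 ± 27.3 CPM at 0–1 h (SD, n = 2 each), a 34.9-fold fall (log2 change −5.12, SE 0.27, adjusted p = 2.24e-29). Of 6042 tested genes it had the 138th lowest log2 change.

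Hsp27, which enters the nucleus, lies on the plus strand of 3L at 9384063–9385694. It had 24 and 4 reads at 4–5 h, against 664 and 580 at 0–1 h, or 43.6 and 13.2 CPM at 4–5 h, against 755 and 701 CPM at 0–1 h. Both 4–5 h libraries were far below both 0–1 h libraries, but they differed from each other more than in any other tested member. The mean was 28.4 ± 21.5 CPM at 4–5 h and 728 ± 38.5 CPM at 0–1 h (SD, n = 2 each), a 22.9-fold fall (log2 change −4.52, SE 0.29, adjusted p = 5.4e-20). Without 4–5 h replicate 1 the log2 change was −5.76 and without 4–5 h replicate 2 it was −4.05, so the fall was called either way and its size rests on which 4–5 h library is used.

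Hsp22, the mitochondrial member, is annotated on the plus strand of 3L at 9372931–9374964. It had 11.6 and 5 estimated reads at 4–5 h, against 38.6 and 42.7 at 0–1 h. In CPM these are 21.0 and 16.5 at 4–5 h, against 43.9 and 51.6 at 0–1 h, with no overlap between the stages. The fall was 2.42-fold (log2 change −1.27, SE 0.42, adjusted p = 0.0064). It rests on few reads: the adjusted p was 0.154 with DESeq2 and 0.0693 in edgeR without 0–1 h replicate 2, with the log2 change still below 0.

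Hsp23, a cytosolic chaperone between Hsp26 and Hsp27 on the chromosome (plus strand of 3L, 9381882–9382765), took the other direction. It had 63.0 and 31 reads at 4–5 h, against 24 and 28 at 0–1 h, or 114.5 and 102 CPM at 4–5 h, against 27.3 and 33.8 CPM at 0–1 h. The stages did not overlap in CPM. Its mean was 108 ± 8.65 CPM at 4–5 h and 30.6 ± 4.61 CPM at 0–1 h (SD, n = 2 each), a 3.57-fold rise (log2 change 1.84, SE 0.31, adjusted p = 2.64e-07). The rise is relative to the bulk of genes. With library size only the log2 change was 0.64 and not called (adjusted p = 0.0644), and on log2(TPM + 1) of the deposited TPM it was −0.16 (adjusted p = 0.584).

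Hsp67Bc (minus strand of 3L, 9371511–9372497) had 1 read, in 4–5 h replicate 1, and none in the other 3 libraries. The gene l(2)efl, on chromosome arm 2R at 23684651–23685543, had 0 reads in all 4. At this depth 0 reads allow up to 3 reads, which is 5.45 and 9.9 CPM in the 4–5 h libraries and 3.41 and 3.62 CPM in the 0–1 h libraries. Such floors cover counting error only. They do not apply to Hsp67Bc in 4–5 h replicate 1, where its 1 read is 1.82 CPM. Elsewhere neither gene was detectable above these levels, and neither could be tested.

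**Figure D1:**
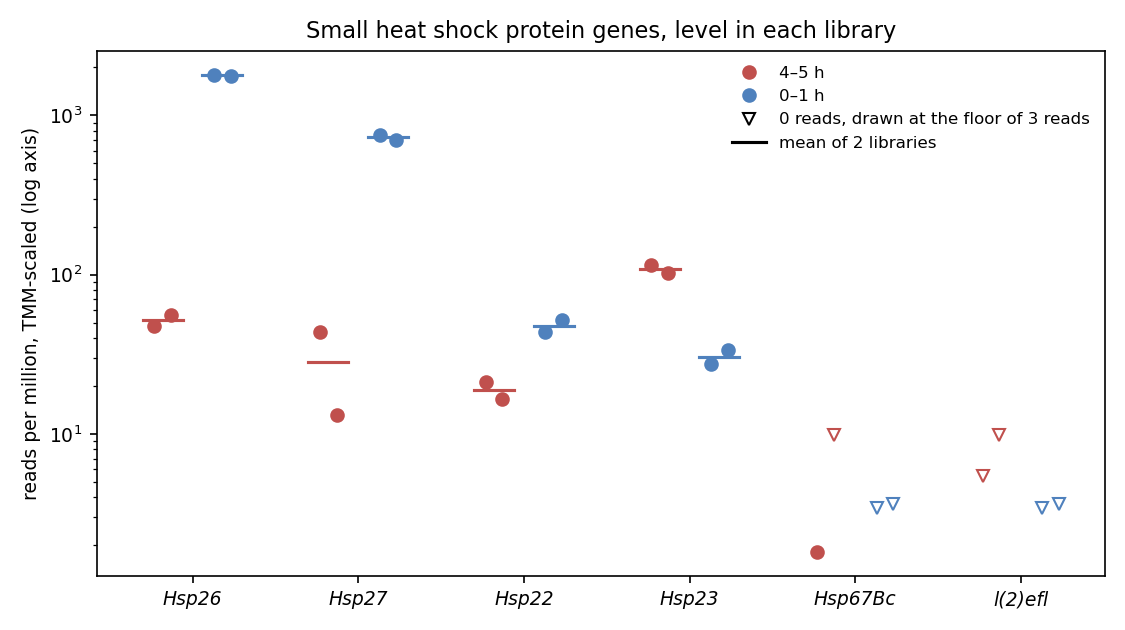
Level of each small heat shock protein gene in each library, in TMM-scaled CPM on a log axis, with 4–5 h in red left of 0–1 h in blue, circles for single libraries, bars for the mean of 2 libraries and open triangles for 0 reads drawn at the floor of 3 reads. Hsp26 and Hsp27 lie at 1764 to 1803 and 701 to 755 CPM at 0–1 h and under 60 CPM at 4–5 h, while Hsp23 is the 1 tested member with 4–5 h libraries above 0–1 h libraries on this scale (its log2 change on log2(TPM + 1) was −0.16).

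The scale used sets where 0 lies. Over all 6042 genes the median log2 change came to −0.10 with TMM, −0.06 with RLE factors, −0.71 with scaling to the reads outside ribosomal protein genes (an alternative chosen after the data were seen), −1.29 with library size only and −1.80 on log2(TPM + 1). Taken relative to that median, Hsp23 was at 1.93, 1.93, 1.93, 1.93 and 1.64 in the same order, and at 1.13 on log2(TPM + 5), where the median was −1.27. On that footing Hsp26 was at −5.03, −5.03, −5.02, −5.03 and −5.19, and at −5.43 on log2(TPM + 5). Hsp27 and Hsp22 kept to −4.42 and −1.18 with TMM and to −4.99 and −1.34 on log2(TPM + 1). TMM, RLE, library size and reads outside ribosomal protein genes each scale a library by a single factor. Such a factor moves all genes and the median together, so likeness among these scalings was fixed in advance. The order of the 4 members was the same on the TPM scales too. There reads are divided by a length that for 99.2% of transcripts is the full length less 250 nt. A gene's change can then differ mainly through its transcript shares and the TPM added. The wide gaps from Hsp22 and Hsp23 to the other members were thus nearly fixed in advance there as well. The difference in the log2 ratio of Hsp26 to Hsp27 was −0.26 from reads and 0.04 from deposited TPM with nothing added.

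**Figure D2:**
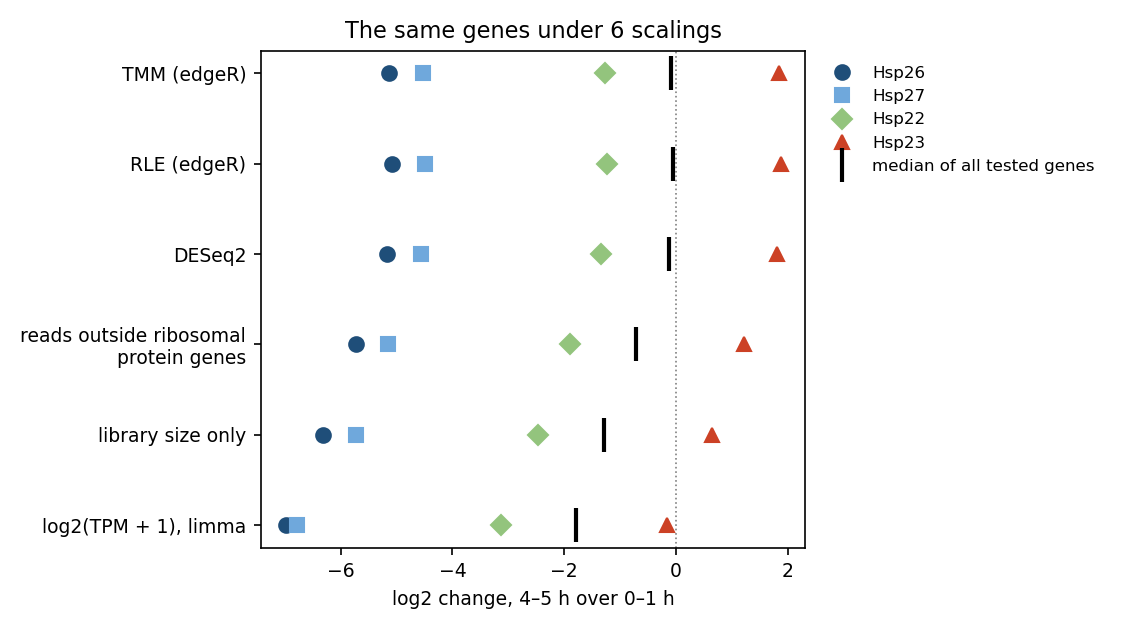
Log2 change (4–5 h over 0–1 h) of the 4 tested small heat shock protein genes under 6 scalings, 1 per row, with the median of all tested genes as a black bar and 0 as a dotted line. Members and median shift left together from TMM to TPM, which is fixed in advance for scalings by a single factor per library. Hsp23 lies right of the median in each row but left of 0 on log2(TPM + 1).

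Levels of different genes were compared in the deposited TPM, in which reads are divided by effective length. A direct RNA read stands for an RNA strand, so against a count of strands this division raises short transcripts over long ones. Hsp26 averaged 17.6 ± 3.32 TPM at 4–5 h and 2338 ± 233 TPM at 0–1 h (SD, n = 2 each). Hsp27 averaged 6.12 ± 5.25 TPM at 4–5 h and 669.5 ± 76.9 TPM at 0–1 h. Hsp22 averaged 5.93 ± 0.22 TPM at 4–5 h and 59.8 ± 1.36 TPM at 0–1 h. Hsp23 averaged 40.9 ± 0.466 TPM at 4–5 h and 45.7 ± 1.23 TPM at 0–1 h. The order by TPM was therefore Hsp23, Hsp26, Hsp27 and Hsp22 at 4–5 h, where the last 2 did not differ beyond their spread, and Hsp26, Hsp27, Hsp22 and Hsp23 at 0–1 h. Among the 7158 genes with reads at 0–1 h, Hsp26 ranked 84th by mean TPM and Hsp27 189th. Among the 8192 genes with reads at 4–5 h, Hsp23 ranked 865th, Hsp26 1601st and Hsp27 2992nd. In CPM, which are not divided by length, Hsp26 and Hsp27 ranked 2632nd and 3899th at 4–5 h, and 71st and 132nd at 0–1 h. The order of the tested members by mean CPM was the same as by mean TPM at each stage.

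**Figure D3:**
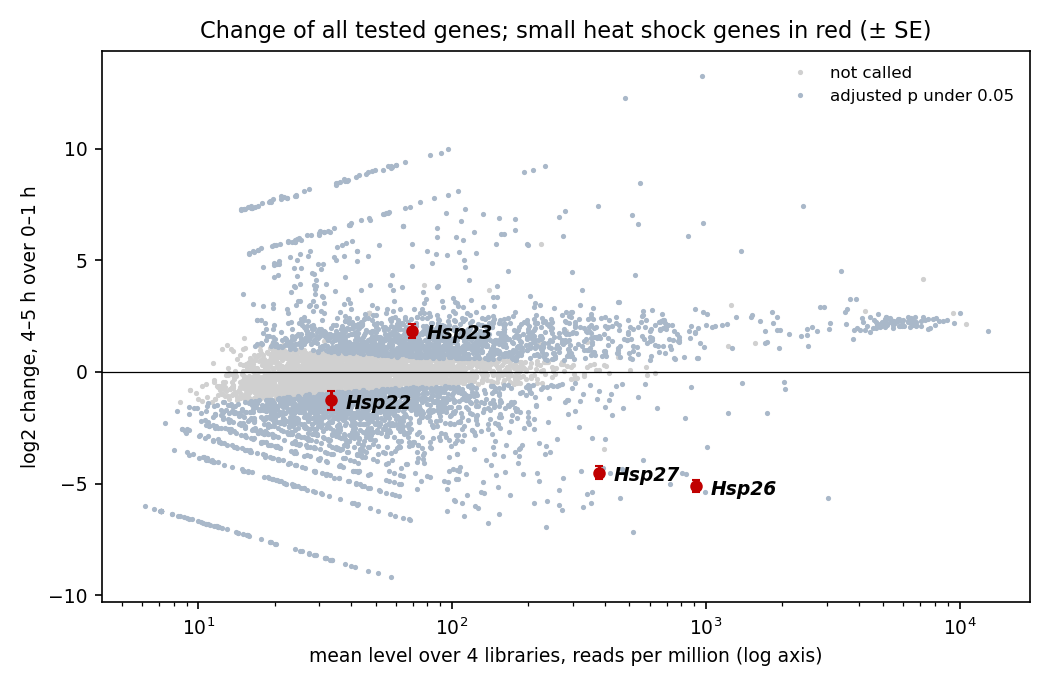
Log2 change (4–5 h over 0–1 h) of the 6042 tested genes against their mean level over 4 libraries in CPM (log axis), with called genes in blue-grey, other genes in light grey and the 4 tested small heat shock protein genes in red with the SE of the change. Hsp26 and Hsp27 lie among the abundant genes with changes of −5.12 and −4.52, and Hsp23 and Hsp22 lie at lower levels on either side of 0.

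Ratios within a library do not depend on scaling, so they compare the maternal members Hsp26 and Hsp27 with Hsp23 directly. For each Hsp23 read there were 0.413 and 0.548 Hsp26 reads in the 4–5 h libraries, against 66.0 and 52.2 in the 0–1 h libraries. The order of the 2 genes was thus inverted between the stages in every library. The log2 ratio, with 0.5 reads added to each count, was −1.05 on average at 4–5 h and 5.85 at 0–1 h, a difference of −6.90 with a pooled SD of 0.27 between replicates. The difference of the fitted log2 changes was −6.96 (SE 0.41). An exact two-sided permutation test over 4 libraries gave p = 0.333, the smallest that 2 against 2 allows.

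Hsp27 gave 0.381 and 0.129 reads for each Hsp23 read at 4–5 h, against 27.7 and 20.7 at 0–1 h. The mean log2 ratio was −2.09 at 4–5 h and 4.55 at 0–1 h, a difference of −6.65 (pooled SD 0.75, exact permutation p = 0.333, the smallest possible). Without 4–5 h replicate 1 the difference was −7.36 and without 4–5 h replicate 2 it was −5.93. Hsp26 and Hsp27 were then set against each other. Hsp26 had 1.08 and 4.25 reads for each Hsp27 read at 4–5 h, against 2.39 and 2.52 at 0–1 h. The 4–5 h libraries lie on either side of the 0–1 h libraries, and the difference of −0.26 in the log2 ratio was smaller than the pooled SD of 0.92 (exact permutation p = 1). It was 0.67 without 4–5 h replicate 1 and −1.18 without 4–5 h replicate 2, so a difference in the fall of the maternal pair was not detectable at 24 and 4 Hsp27 reads.

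Summed over the 6 members, small heat shock reads were 126 and 57 at 4–5 h, or 0.0142% and 0.0133% of each library, against 2310 and 2111 at 0–1 h, or 0.403% and 0.379%. Their make-up changed with the total. Hsp23 supplied 50% (95% exact binomial interval 41.0–59.0%) and 54.4% (40.7–67.6%) of them at 4–5 h, against 1.04% (0.667–1.54%) and 1.33% (0.883–1.91%) at 0–1 h. Hsp26 supplied 20.6% (13.9–28.7%) and 29.8% (18.4–43.4%) at 4–5 h, against 68.5% (66.6–70.4%) and 69.2% (67.1–71.1%) at 0–1 h. The intervals of the stages did not overlap for either gene. Hsp27 supplied 19.0% (12.6–27%) and 7.02% (1.95–17.0%) at 4–5 h, against 28.7% (26.9–30.6%) and 27.5% (25.6–29.4%) at 0–1 h, where the interval of 4–5 h replicate 1 overlaps those of both 0–1 h libraries. Hsp22 supplied 9.52% (5.02–16.1%) and 8.77% (2.91–19.3%) at 4–5 h, against 1.69% (1.2–2.3%) and 2.04% (1.48–2.73%) at 0–1 h. These intervals cover counting error only. Shares sum to the whole, so a share can rise without a rise in level. Hsp22 averaged 18.8 CPM at 4–5 h, against 47.7 CPM at 0–1 h, although its share was larger at 4–5 h. Hsp23, whose share also rose, averaged 108 CPM at 4–5 h, against 30.6 CPM at 0–1 h. In deposited TPM it averaged 40.9 at 4–5 h, against 45.7 at 0–1 h. Whether its level rose thus depends on the scale.

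**Figure D4:**
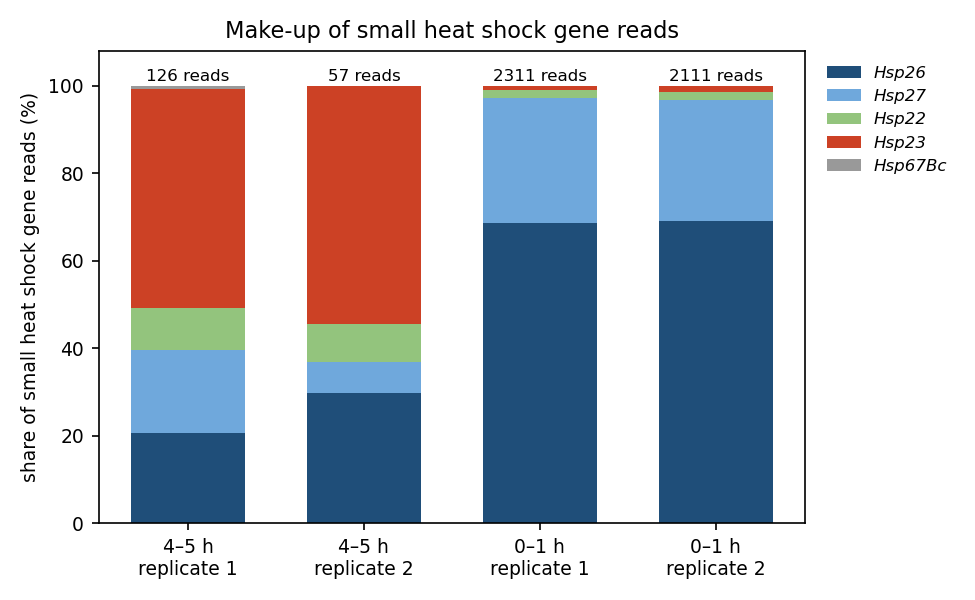
Share of each gene among all small heat shock gene reads in each library (stacked bars, percent, 4–5 h libraries left of 0–1 h libraries, total reads above each bar). Hsp26 and Hsp27 make up nearly the whole bar at 0–1 h, and Hsp23 takes 50% and 54.4% at 4–5 h. A share can rise without a rise in level.

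Position and gene structure were not used to choose the members. Of the 6 genes 5 lie on 3L within 14184 bp, with Hsp26 and Hsp67Bc on the minus strand and Hsp22, Hsp23 and Hsp27 on the plus strand. The gene l(2)efl lies apart on 2R. Every annotated transcript of Hsp23, Hsp26, Hsp27 and Hsp67Bc has 1 exon, while those of l(2)efl have 3. The coding sequences are of similar size: 174 residues in Hsp22, 186 in Hsp23, 208 in Hsp26, 213 in Hsp27, 199 in Hsp67Bc and 187 in l(2)efl. Of the genes that are intronless and whose read-weighted transcript length lies within the range of the tested members (878.2 to 1276.4 nt), 149 were tested, with 26.8% lower, 32.2% higher and a median log2 change of 0.14 (with library size only 85 lower, 18 higher and a median of −1.07). The shares over all 6042 tested genes were 31.5% lower and 28.6% higher. Of the 149, 3 had a change as low as that of Hsp26, with Hsp26 counted. A change as low as that of Hsp27 was seen in 5, with Hsp26 and Hsp27 counted. The same counts over all tested genes were 138 and 201.

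Each member with reads in both stages has 2 annotated transcripts. Of the 2 Hsp27 forms, Hsp27-RA of 1220 nt and Hsp27-RB of 1632 nt with a longer 3′ end, the long form held 14.2% (95% exact interval 2.66–32.4%) and 100% (39.8–100%) of reads at 4–5 h, against 18.1% (15.2–21.2%) and 8.02% (6.02–10.6%) at 0–1 h. The 100% stands for 4 reads, so the stages overlap apart from that library. Hsp27 was the 1 member with both forms past the filter, and its usage was not called (diffSpliceDGE in edgeR, adjusted p = 0.816), where 13.1% of 823 tested genes were called. Hsp26 reads were nearly all assigned to the 958 nt form Hsp26-RA, with 100% in both 4–5 h libraries, against 99.6% and 99.4% at 0–1 h. The Hsp26 forms share their 3′ end and differ at the start, with 5′ untranslated parts of 187 and 239 nt. A read that stops short of the start cannot tell them apart, and how many did was not tested. The Hsp23 forms share their start and differ at the 3′ end, at 849 and 884 nt. All reads at 4–5 h and in 0–1 h replicate 2 were assigned to the longer Hsp23-RB, and all 24 reads of 0–1 h replicate 1 to Hsp23-RA. That split runs between replicates and not between stages, and gene sums are not touched by it.

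Hsp22 has a short form, Hsp22-RB, of 968 nt and 1 exon, and a long form, Hsp22-RA, of 1900 nt that also carries the neighbouring gene CG4456 (formerly Hsp67Bb). The short form held 84.1% and 100% of Hsp22 reads at 4–5 h, against 96.3% and 94.6% at 0–1 h. Both forms have the same 3′ end, so a read that stops short of the start cannot tell them apart. The long form had the same estimated reads as the CG4456 transcript of the same span and length in every library, 1.84 and 0 at 4–5 h, against 1.43 and 2.31 at 0–1 h, so to which of these annotated transcripts such reads belong is uncertain. In all, CG4456 had 3.42 and 2 reads at 4–5 h, against 1.43 and 2.31 at 0–1 h, and was not tested.

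Few of the other fly genes with an alpha-crystallin domain were seen. Of Hsp67Ba, CG4461, CG7409, CG13133, CG14207 and CG43851, 4 had no reads in any library, including CG4461, which lies beside Hsp26. Hsp67Ba, the next gene on the other side of Hsp26, had 0 and 1 reads at 4–5 h, against 2.13 and 4 at 0–1 h. The 1 tested gene was CG14207, on chromosome X, a relative of the human chaperone HSPB8. It had 39 and 11 reads at 4–5 h, against 31 and 44 at 0–1 h, or 70.9 and 36.3 CPM at 4–5 h, against 35.3 and 53.2 CPM at 0–1 h. The stages overlapped and the change of 0.36 (SE 0.35) was not called (adjusted p = 0.383). With library size only the change was −0.84 (adjusted p = 0.0325).

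Genes next to the cluster held both directions. Within 25 kb of the cluster lie 20 other genes, of which 9 were tested: 4 fell, 2 rose and 3 were not called, at a median log2 change of −0.71 (7 lower and 1 higher with library size only). Over all tested genes 31.5% were lower and 28.6% higher, and 9 genes are too few to set apart from that. Those that fell were UGP, the UDP-glucose pyrophosphorylase gene (−2.93, SE 0.35, and −3.98 without 4–5 h replicate 1), Svip (−1.66, SE 0.45; not called without 0–1 h replicate 2, at −1.29, nor with DESeq2, and at −2.26 without 4–5 h replicate 1), the cap-binding factor gene eIF4E1 (−1.57, SE 0.22) and the ferredoxin gene Fdx1. Fdx1 had 0 and 1 reads at 4–5 h, against 23 and 25 at 0–1 h, a TMM-scaled ratio of 24.0 of 0–1 h over 4–5 h (95% counting interval 4.11–967.5). The pyridoxal kinase gene Pdxk rose by 2.67 (SE 0.29), as did CG4452 by 1.49 (SE 0.26), although CG4452 was at −0.41 on log2(TPM + 1). The kinesin gene Klp67A (0.23, SE 0.32), the mitochondrial ribosome recycling factor gene mRRF1 (−0.71, SE 0.40) and CG4022 (0.13, SE 0.36) were not called, and CG4080, with 33 reads in all, was not tested. Hsp23 lies between Hsp26 and Hsp27, with a change opposite in sign to both with TMM and of the same sign on log2(TPM + 1), at −0.16.

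**Figure D5:**
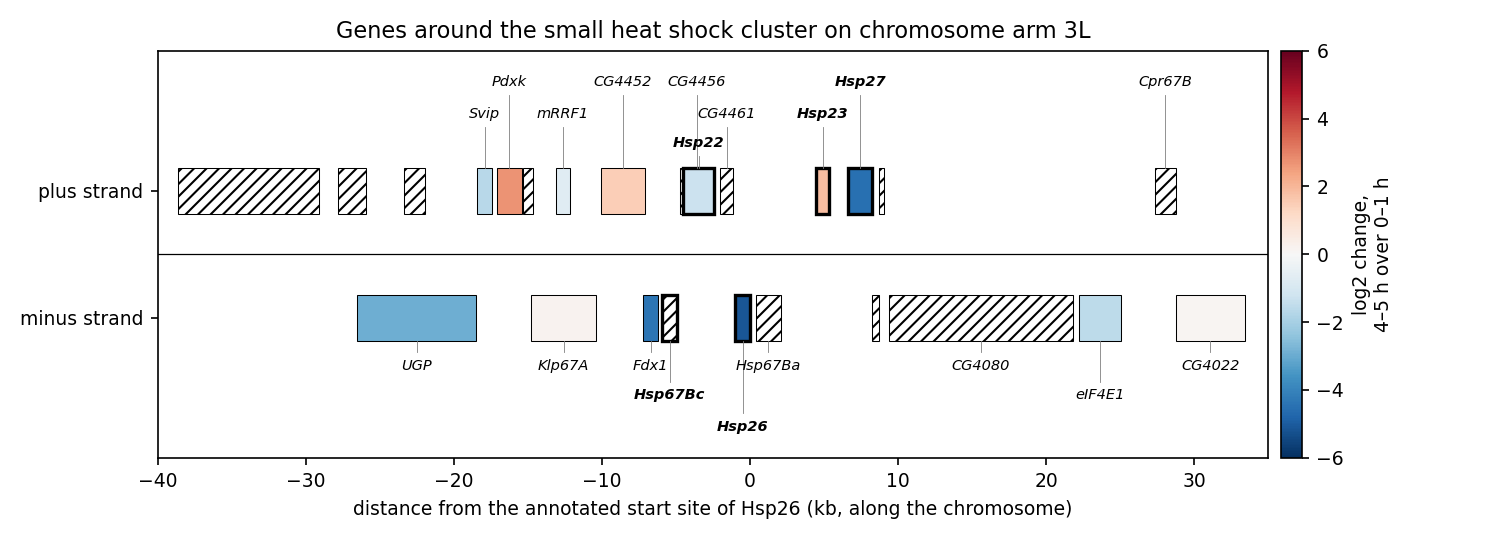
Genes around the small heat shock cluster, drawn to scale by distance in kb from the annotated start site of Hsp26, on the plus strand (top) and minus strand (bottom), coloured by log2 change (4–5 h over 0–1 h), with untested genes hatched, small heat shock genes in heavy outline and genes without reads left unnamed except CG4461. Deep blue Hsp26 and Hsp27 (−5.12 and −4.52) flank Hsp23 at 1.84, and the neighbours hold both signs.

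Other heat shock and co-chaperone genes, with which small heat shock proteins work, fell more often than they rose. Of 25 genes 15 were tested, 12 fell and 1 rose, with a median log2 change of −1.54 (8 lower and 1 higher with DESeq2, and 14 lower and none higher with library size only). Over all tested genes 31.5% were lower and 28.6% higher, and with library size only 3828 of 6042 were lower. Hsp83, the fly Hsp90 gene, had 182 and 178 CPM at 4–5 h, against 1915 and 1771 CPM at 0–1 h (log2 change −3.35, SE 0.24). The mitochondrial chaperonin gene Hsp60A fell by 3.67 (SE 0.30) and the endoplasmic reticulum chaperone gene Hsc70-3 by 2.71 (SE 0.31). The gene that rose was Hsc70-4, the constitutive cytosolic Hsp70 (1.15, SE 0.20), named after its values were seen, whose change was −0.05 with library size only and −0.81 on log2(TPM + 1). The 6 heat-inducible Hsp70 copies are near-identical, so the split of reads between them is uncertain. Hsp70Aa, named with Hsp70Ab after the values were seen, had 0 and 7 reads at 4–5 h, against 60 and 49 at 0–1 h, and Hsp70Ab had 7 and 0 at 4–5 h, against 0 in both 0–1 h libraries. The co-chaperone gene stv (starvin) had 0 reads in all libraries and was named here after its values were seen, as the partner of Hsp67Bc.

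Of 12 regulators of small heat shock gene transcription 11 were tested, 3 fell and 4 rose, with a median of −0.09 (3 lower and 2 higher with DESeq2, 6 lower and 1 higher with library size only), which is close to the 31.5% lower and 28.6% higher of all tested genes. The smallest p belonged to TH1, a subunit of the negative elongation factor that holds RNA polymerase at heat shock promoters, with 136 and 132 CPM at 4–5 h, against 22.8 and 19.3 CPM at 0–1 h (log2 change 2.66, SE 0.32). On log2(TPM + 1) its change was 0.67 and not called (adjusted p = 0.0689). Next came usp, a partner subunit of the ecdysone receptor, which fell by 3.26 (SE 0.39), and the elongation factor gene spt4, which rose by 1.57 (SE 0.24) with TMM and was at −0.38 on log2(TPM + 1). Hsf, which encodes the heat shock factor and was named after its values were seen, had 45.4 and 52.8 CPM at 4–5 h, against 150.2 and 140.1 CPM at 0–1 h (−1.58, SE 0.30).

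Genes with the most similar levels were found as the tested genes nearest in log2 CPM over the 4 libraries (Euclidean distance, prior count 2). For Hsp26 they were the glycolytic gene Gapdh2 at a distance of 0.60, CG6770 at 0.60 and the peroxiredoxin gene Prx2 at 0.61, with log2 changes of −5.37, −5.02 and −4.52. For Hsp27 they were gnu, an activator of the PNG kinase (distance 1.07), nanos, the posterior determinant (1.15), and Gapdh1 (1.16), with changes of −4.45, −5.40 and −4.29. For Hsp23 they were CG14985 (0.08), CG2063 (0.09) and wcd (0.33), with changes of 1.76, 1.86 and 1.77, all 3 of which were below 0 on log2(TPM + 1), as Hsp23 was. Only 4 libraries of 2 stages enter these distances, which describe likeness of level and not of function. The genes were chosen for like CPM in every library, so their like log2 changes follow from the choice.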

How the data were processed

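Whole-embryo RNA of 2 stages, 2 libraries each, was read by Nanopore direct RNA sequencing, per the labels' protocols. The submitters' processing notes name minimap2, Salmon and build BDGP6, while versions and settings were not given in the sources used here. Deposited expected counts are the authors' read estimates per transcript, not normalised. Deposited TPM, also the authors' values, divide reads by an effective length, which for 99.2% of transcripts is 250 nt less than the full length.

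Of 30652 listed transcripts 30280 matched Ensembl release 115 (BDGP6.54, possibly a later patch than the authors' own) by identifier, 99.4% of them at the same length. The 371 unmatched fly transcripts kept their identifiers. A yeast transcript, with 0 to 7 reads (at most 0.00163%), was left out. Counts were summed per gene, rounded and tested in R 4.3.3 by edgeR 4.0.16 (filterByExpr, at minimum count 10, TMM, robust quasi-likelihood fit, stage as the only term, Benjamini-Hochberg adjustment over all genes, threshold 0.05). SE is the log2 change over the root of F. TPM were tested with limma 3.58.1 on log2(TPM + 1) and log2(TPM + 5), scales on which fold changes of low genes are understated. DESeq2 1.42.0 was an alternative. The fit was tested on simulated data in which few genes changed, as many up as down. That test therefore does not bear on the choice of scaling. Libraries of a stage differed beyond counting noise (chi-square over degrees of freedom 4.42 at 4–5 h and 3.12 at 0–1 h). The labels do not say whether replicates were separate collections, so p-values cover only the spread among these samples, possibly a technical one.

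The members and lists were chosen with earlier results of these data known. Named are the 6 members, the other alpha-crystallin genes, genes within 25 kb of a member on 3L with at least 10 reads, the 3 genes of each other list with the smallest p, and the 3 nearest genes of Hsp23, Hsp26 and Hsp27 (l(2)efl had no reads). Genes outside this are marked in the text.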

Additional observations from a re-analysis of the deposited data

How the results depend on the processing

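Hsp26 and Hsp27 stayed lower at 4–5 h and called under all 14 alternatives, from −6.98 to −4.97 and from −6.78 to −4.05 in log2 change. Hsp22 lost its call with DESeq2 (−1.34, adjusted p = 0.154), and with a library left out it ran from −1.53 to −1.13, not called without 0–1 h replicate 2. Hsp23 lost its call with library size only (0.64) and was at −0.16 and −0.14 on log2(TPM + 1) and log2(TPM + 5). The count of genes higher at 4–5 h was 654 with library size only, 312 and 314 on these TPM scales and 1145 with scaling to reads outside ribosomal protein genes, added after the data were seen. The count lower was 3828 with library size only, 4798 and 4837 on the TPM scales and 1026 with DESeq2. The shift of the all-gene median with the scaling is given in the report, and what sets it was not tested. The difference in the log2 ratio of Hsp26 to Hsp27, −0.26 as reported, ran from −1.18 to 0.67 with a library left out and was 0.04 from the deposited TPM. With 2 libraries a stage, leaving one out cannot move such a difference by more than the pooled SD, so this says nothing about stability.

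Replicate numbers are not stated to pair the libraries, and same-numbered libraries did not deviate together (correlation −0.159). With a replicate block the changes of Hsp22, Hsp23, Hsp26 and Hsp27 were −1.27, 1.84, −5.12 and −4.60, all still called. Depth limits the values at 4–5 h, where small heat shock reads numbered 126 and 57. Thinned to the smallest library, all 4 tested members kept their call.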
